A study of Arabis alpina with 9 samples.

Results

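Trichomes are the hairs of the shoot epidermis, and in *Arabidopsis thaliana* a small set of regulatory genes decides which epidermal cells form one. The report follows the *Arabis alpina* orthologs of 8 of these genes, *GL1*, *GL3*, *EGL3*, *TTG1*, *GL2*, *TRY*, *CPC* and *ETC1*, chosen as the rows of the deposited gene table whose *Arabidopsis* ortholog is one of the 8. Each matched 1 row, so there were 8 genes of the 30690 in the table, and all 8 had enough reads to be tested (21713 genes were).

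The libraries came from dissected shoot apices of *A. alpina*, a perennial relative of *Arabidopsis*, at an age of 3 weeks in long days (16 h light, 8 h dark), with 3 libraries of each of 3 genotypes. The *pep2-1* plants (labelled pep2) carry a mutation in *PEP2*, the ortholog of the flowering regulator *APETALA2*, and were genotyped as homozygous within a segregating population. The *pep1-1* plants carry a mutation in *PEP1*, a repressor of flowering. The wild type is the accession Pajares, in which both alleles were made by EMS, a chemical mutagen. Each mutant is thus represented by 1 allele, and other EMS changes in the same lines were not analysed here. The libraries of a genotype are described as biological replicates, and whether plants were pooled in them was not stated. The study asked which genes of the apex depend on *PEP2* and *PEP1*, and each mutant is here set against the wild type and *pep2-1* against *pep1-1*. Any pair of these 3 comparisons has 1 genotype in common.

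In *Arabidopsis*, the MYB protein GL1, the bHLH proteins GL3 and EGL3 and the WD40-repeat protein TTG1 form a complex that starts trichome fate and switches on *GL2*. The same complex switches on *TRY*, *CPC* and *ETC1*, short MYB proteins without an activation domain that move to neighbouring cells and take the place of GL1 in the complex. Activators and inhibitors are thus made in the same cells, and the balance between them spaces the hairs. These roles are known from *Arabidopsis* and are assumed, not shown, for *A. alpina*.

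Libraries held 12871904 to 23829973 reads in genes. Levels are given as CPM, counts per unit of 1e6 reads after TMM scaling of the library sizes, unless FPKM is named. *PEP2* reads were present in every library (72.2 to 84.8 CPM in *pep2-1*, 49.7 to 61.5 in *pep1-1* and 54.9 to 67.6 in the wild type), so its level does not check the labels, and *PEP1* was not analysed here. Markers of the shoot apex were present: the 5 meristem markers summed to 137 to 242 CPM over the 9 libraries and the 2 young leaf markers *AS1* and *FIL* to 270.2 to 318 CPM, though the stem cell genes *WUS* and *CLV3* had 0 to 3 reads. Root hair markers, which share regulators with trichomes, summed to 1.26 to 2.15 CPM, most of it from *EXPA18*. Replicate A of each genotype stood apart in the light-harvesting gene *LHB1B1*, a mesophyll marker, with 1715 CPM in *pep2-1*, 636 in *pep1-1* and 1063 in the wild type, against 160 to 494 CPM in the replicates B and C.

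None of the 8 genes passed the test in any of the 3 comparisons, and *GL1* in *pep2-1* lay farthest from the other genotypes. To be called, a gene needed an adjusted p no higher than 0.05 (edgeR's quasi-likelihood test, Benjamini-Hochberg over the 21713 genes) together with a log2 fold change of 1 or more, up or down. The count was 0 of 8 in *pep2-1* over the wild type, where 0.834% of all tested genes were called, 0 of 8 in *pep1-1* over the wild type (0.161% of genes) and 0 of 8 in *pep2-1* over *pep1-1* (1.34% of genes). With shares this low, a count of 0 among 8 genes is what the background holds. DESeq2 and limma-voom also called 0. At an unadjusted p under 0.05, edgeR had 1, 0 and 2 of the 8 in the same order of comparisons, beside 15.3%, 6.36% and 19.1% of all genes. The lowest adjusted p of the 24 tests was 0.105.

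The tests limit how far these genes can have moved. Each 95% interval is for 1 test alone, without adjustment for the number of tests. The interval of the log2 fold change lay inside -1 to 1 in 22 of the 24 tests. Read singly, each of these leaves out a doubling or halving. The interval held 0 in 21 of the 24. *GL1* in *pep2-1* over the wild type and over *pep1-1* was the exception on both counts, with intervals that reached past -1 and left out 0, and the interval of *GL2* in *pep2-1* over *pep1-1* also left out 0. In *pep2-1* over the wild type 7 of the 8 values lay below 0, with a median log2 fold change of -0.31, and over all tested genes 50.3% lay below 0 with a median of -0.00. The values of *pep1-1* over the wild type were split evenly, 4 below and 4 above 0, with a median of 0.01. In *pep2-1* over *pep1-1* 6 of the 8 lay below 0, with a median of -0.24 beside -0.01 over all genes. The *pep2-1* libraries serve in the first and last of these comparisons, so those values are not independent of each other.

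**Figure D1:**
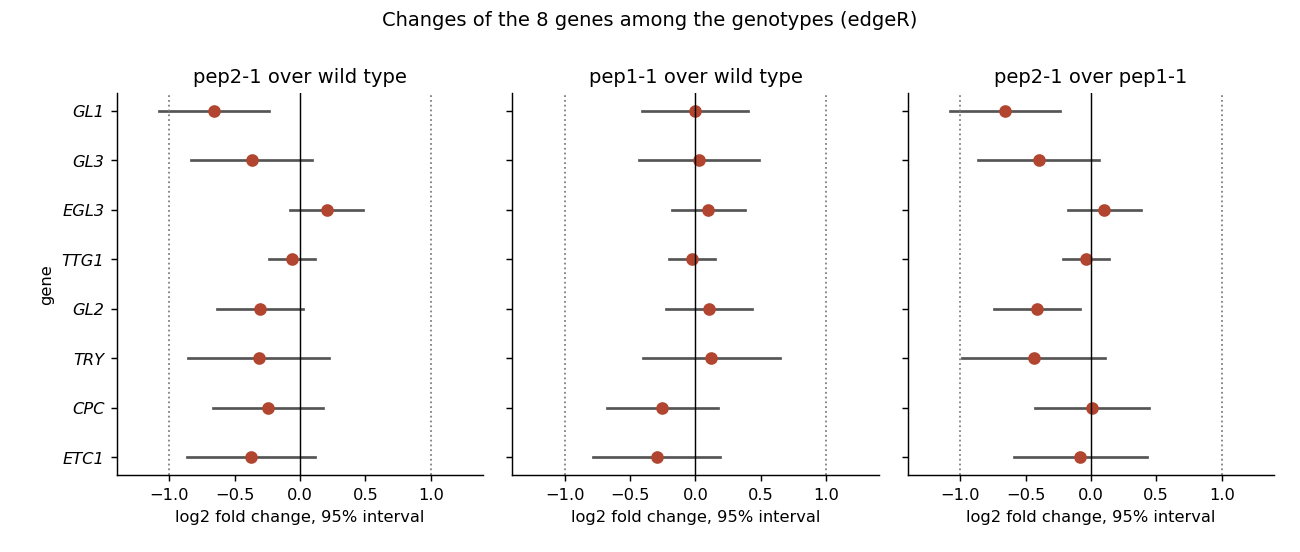
Log2 fold changes of the 8 genes (rows) with 95% intervals (lines) from edgeR in *pep2-1* over wild type, *pep1-1* over wild type and *pep2-1* over *pep1-1*, n = 3 libraries each; dotted lines mark the threshold of 1 in either direction. *GL1* lies farthest from 0, at -0.66 in both comparisons of *pep2-1*, and every interval of *pep1-1* over wild type holds 0.

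*GL1* (AALP_AA5G050100, described as myb domain protein 0, ortholog of AT3G27920) had the largest differences of the 8. It lies on chromosome 5 from 3315464 to 3317318 of the *A. alpina* reference genome, and no other gene of the table overlaps it, which also holds for the other 7. Its level was 9.29, 13.1 and 10.96 CPM in *pep2-1* replicates A, B and C, 13.4, 19.8 and 19.1 CPM in those of *pep1-1*, and 14.1, 18.9 and 19.3 CPM in those of the wild type. Every *pep2-1* library lay below every *pep1-1* and every wild-type library, while *pep1-1* and the wild type overlapped.

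The mean of *GL1* was 11.1 ± 1.89 CPM in *pep2-1* and 17.4 ± 2.89 CPM in the wild type (SD, n = 3 each). The log2 fold change was -0.66 (standard error 0.188, 95% interval -1.08 to -0.24), with an unadjusted p of 0.00584 and an adjusted p of 0.139 from edgeR, so it did not pass. Groups of 3 that do not overlap give an exact two-sided permutation p of 0.1, the smallest this design allows, and 11.1% of all tested genes had every *pep2-1* library below every wild-type library. In *pep2-1* over *pep1-1*, whose mean was 17.5 ± 3.53 CPM, the log2 fold change was also -0.66 (standard error 0.189, 95% interval -1.08 to -0.23, adjusted p = 0.105 from edgeR), and 11.5% of genes were separated in this way. The *pep1-1* and wild-type means differed by less than their spread, with a 95% interval of the log2 fold change from -0.41 to 0.40.

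The adjusted p of *GL1* depended on the libraries and on the test, and the fold change stayed under the threshold of 1 in each alternative. Replicate A was the lowest library of each genotype for *GL1*, and likewise for *GL3* and *TRY*. With the replicates B and C alone, *GL1* stood at -0.66 on the log2 scale against the wild type (adjusted p = 0.0130, edgeR), and at -0.70 against *pep1-1* (adjusted p = 0.00922). DESeq2 gave adjusted p-values of 0.0563 and 0.0387 for the same comparisons, and limma-voom gave 0.1302 and 0.127. Leaving out 1 library moved the adjusted p (edgeR) both ways. Over the wild type it reached 0.418 without wild-type replicate C, 0.395 without wild-type replicate B, 0.328 without *pep2-1* replicate C and 0.322 without *pep2-1* replicate A, and it was lowest at 0.0574 without wild-type replicate A. Over *pep1-1* it ran from 0.0335 without *pep1-1* replicate A to 0.294 without *pep1-1* replicate B. The part of the high *LHB1B1* level of the A libraries in these values was not tested.

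**Figure D2:**
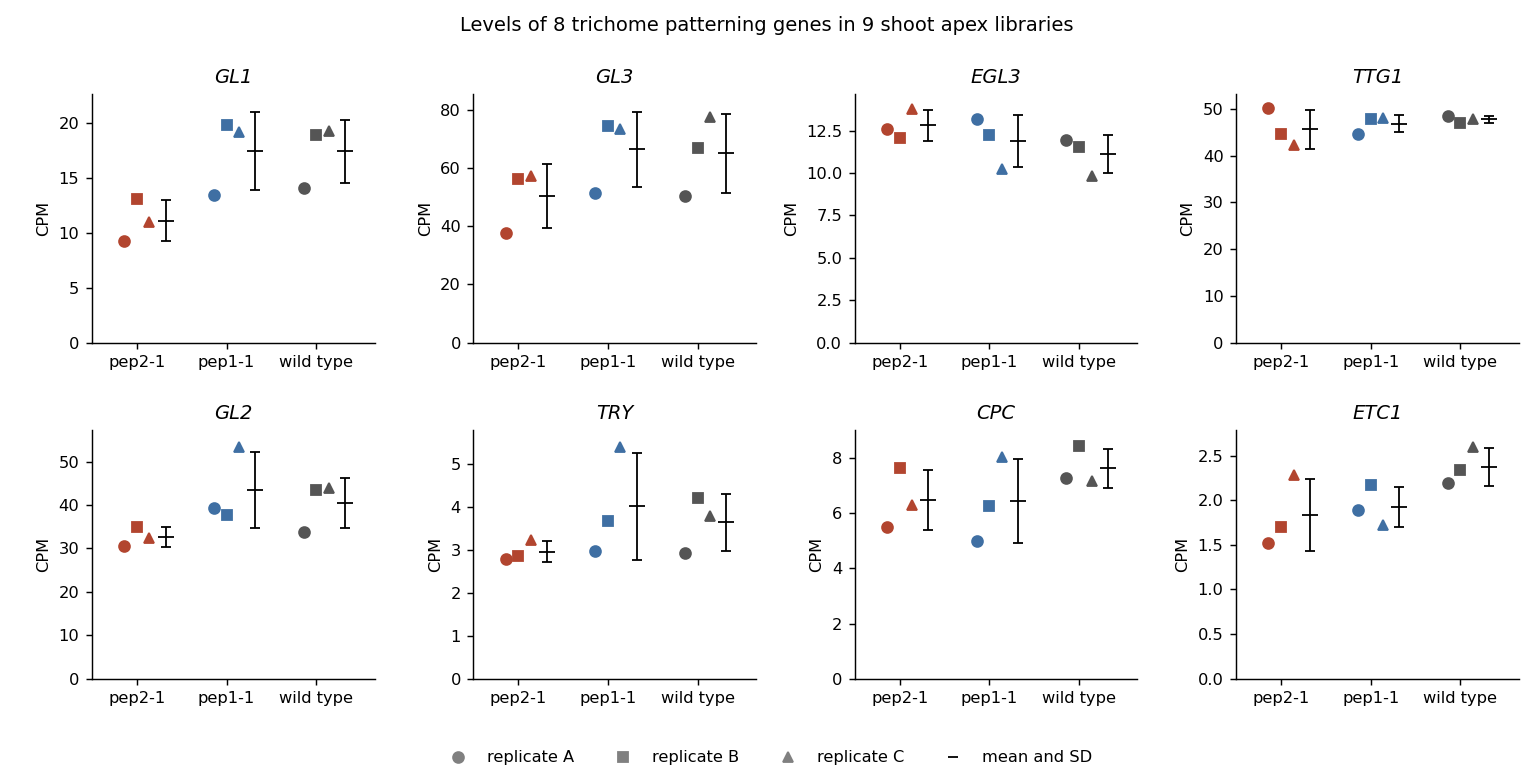
CPM of each of the 8 genes in the 9 libraries, with *pep2-1*, *pep1-1* and wild type from left to right in each panel, symbols for replicates A, B and C, and the mean with SD beside them (n = 3). The 3 *pep2-1* libraries of *GL1* sit between 9.29 and 13.1 CPM, below all 6 others, whereas *TTG1* spans 42.2 to 50.3 CPM over all 9.

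The bHLH partner *GL3* (AALP_AA6G320200, ortholog of AT5G41315) lies on chromosome 6 from 33081827 to 33085864. It had 37.7, 56.3 and 57.4 CPM in *pep2-1*, 51.6, 74.7 and 73.4 CPM in *pep1-1* and 50.6, 67.0 and 77.7 CPM in the wild type. The genotypes overlapped, and the A library was the lowest in each. The log2 fold change over the wild type was -0.37 in *pep2-1* (standard error 0.207, edgeR adjusted p = 0.428), and that over *pep1-1* was -0.40 (standard error 0.208, adjusted p = 0.333). Without the A libraries the adjusted p was 0.0525 over the wild type and 0.0321 over *pep1-1*, at log2 fold changes of -0.34 and -0.38. DESeq2 and limma-voom gave 0.330 and 0.336 over *pep1-1*, and with 1 library left out the highest was 0.659 (edgeR, without *pep2-1* replicate A).

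*EGL3* (AALP_AA6G002800, ortholog of AT1G63650), which acts in part in place of *GL3* in *Arabidopsis*, lies on the same chromosome from 135778 to 140346. It had 12.6, 12.1 and 13.8 CPM in *pep2-1*, 13.2, 12.3 and 10.2 CPM in *pep1-1* and 12.0, 11.54 and 9.83 CPM in the wild type. It was the only one of the 8 with every *pep2-1* library above every wild-type library, a separation that 10.4% of all tested genes had in this direction. The gap between the nearest libraries was small (12.1 against 12.0 CPM), and the log2 fold change of 0.20 (95% interval -0.08 to 0.48, adjusted p = 0.476 from edgeR) did not pass.

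*TTG1* (AALP_AA8G421800, ortholog of AT5G24520), the WD40-repeat member of the complex, lies on chromosome 8 from 35247080 to 35248112. It was the steadiest of the 8, with 50.3, 44.6 and 42.2 CPM in *pep2-1*, 44.7, 47.8 and 48.1 CPM in *pep1-1* and 48.4, 47.0 and 47.8 CPM in the wild type. The genotypes overlapped, and the 95% interval of the log2 fold change was -0.24 to 0.11 in *pep2-1* over the wild type, -0.20 to 0.15 in *pep1-1* over the wild type and -0.21 to 0.14 in *pep2-1* over *pep1-1*. These were the narrowest intervals of the 8 genes.

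*GL2* (AALP_AA2G249800, ortholog of AT1G79840) encodes a homeobox-leucine zipper protein that acts after the complex, and lies on chromosome 2 from 27725172 to 27728977. It had 30.6, 35.01 and 32.4 CPM in *pep2-1*, 39.3, 37.7 and 53.5 CPM in *pep1-1* and 33.8, 43.6 and 43.9 CPM in the wild type. All *pep2-1* libraries lay below all *pep1-1* libraries, as for 11.5% of all tested genes, while *pep2-1* overlapped with the wild type through wild-type replicate A. The log2 fold change was -0.41 in *pep2-1* over *pep1-1* (standard error 0.148, 95% interval -0.74 to -0.08, adjusted p = 0.172 from edgeR), -0.31 in *pep2-1* over the wild type (standard error 0.148, adjusted p = 0.354) and 0.10 in *pep1-1* over the wild type (standard error 0.146, adjusted p = 0.993). *GL1* and *GL2* were thus the 2 genes with an unadjusted p under 0.05 in *pep2-1* over *pep1-1*, and neither passed.

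The inhibitors had 22 to 206 reads per library. *CPC* (AALP_AA4G252900, ortholog of AT2G46410, chromosome 4, 22186923 to 22188168) was the highest of them per length, with 5.50, 7.65 and 6.31 CPM in *pep2-1*, 5.01, 6.28 and 8.05 CPM in *pep1-1* and 7.29, 8.43 and 7.17 CPM in the wild type. The genotypes overlapped, with log2 fold changes over the wild type of -0.24 in *pep2-1* and -0.25 in *pep1-1* (standard error 0.190 each).

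*TRY* (AALP_AA8G313200, ortholog of AT5G53200, chromosome 8, 26946374 to 26948036) keeps neighbouring trichomes apart in *Arabidopsis*. It had 2.78, 2.86 and 3.23 CPM in *pep2-1*, 2.98, 3.68 and 5.39 CPM in *pep1-1* and 2.92, 4.22 and 3.79 CPM in the wild type. The *pep2-1* libraries lay at the low end of the other genotypes' ranges and overlapped with both. The widest interval of the 8 genes was that of *TRY* in *pep2-1* over *pep1-1*, with a log2 fold change of -0.44 (95% interval -0.98 to 0.11).

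*ETC1* (AALP_AA1G006200, ortholog of AT1G01380, chromosome 1, 314074 to 314723) had the fewest reads, with 1.52, 1.70 and 2.29 CPM in *pep2-1*, 1.90, 2.17 and 1.72 CPM in *pep1-1* and 2.19, 2.33 and 2.599 CPM in the wild type. Every *pep1-1* library lay below every wild-type library, as for 5.94% of all tested genes, and the log2 fold change of -0.30 (standard error 0.218, 95% interval -0.78 to 0.19, adjusted p = 0.941 from edgeR) did not pass. In *pep2-1* over the wild type the libraries overlapped and the log2 fold change was -0.38 (standard error 0.220, adjusted p = 0.446).

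The inhibitors act as a group in *Arabidopsis*, together with *ETC3*, so their levels were also summed. *TRY*, *CPC*, *ETC1* and *ETC3* together had 14.0, 16.6 and 15.9 CPM in *pep2-1*, 13.1, 16.5 and 18.98 CPM in *pep1-1* and 16.8, 18.9 and 17.6 CPM in the wild type. All 3 *pep2-1* libraries lay below the lowest wild-type library, at 16.6 and 16.8 CPM for the nearest, and *pep1-1* overlapped with both. Among single genes, 11.1% were separated in this way in *pep2-1* over the wild type. *ETC3* itself did not fall, at 4.225 ± 0.160 CPM in *pep2-1* and 4.11 ± 0.295 CPM in the wild type (SD, n = 3 each). The sum was not in the planned design, and no result for the group is read from it. It was not stated how reads that fit several of these related short genes were counted, and the same holds for *GL1* and its close relative *MYB23*, which lie 731.7 kb apart on chromosome 5, and for *GL3*, *EGL3* and *MYC1*.

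Levels were compared between genes only per length. For each library the CPM of a gene was multiplied by the ratio of the authors' genotype FPKM values to the CPM means of that gene, which gives a level per length in units of FPKM. In the wild type *TTG1* was highest with 56.9 ± 0.818 FPKM (SD, n = 3, as for the next values), above 87.1% of all tested genes. *GL3* followed with 32.2 ± 6.74 FPKM, *GL1* with 24.8 ± 4.12, *CPC* with 18.7 ± 1.71 and *GL2* with 17.5 ± 2.49. *ETC1* had 9.48 ± 0.834 FPKM, *TRY* 9.02 ± 1.64 and *EGL3* 2.52 ± 0.256, with 16.0% of tested genes below the last. The wild-type libraries thus ordered the genes in steps: *TTG1*, then *GL3*, *GL1*, *CPC* and *GL2*, in which each neighbour overlapped with the next, then *ETC1* and *TRY*, which overlapped, and then *EGL3*. Between the steps no wild-type library overlapped. The steps were read from these same values in the same 3 libraries, so no p-value is given for them.

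The ends of this order were the same in all 3 genotypes, with *TTG1* highest and *EGL3* lowest. *GL1* had rank 4 in *pep2-1* (15.8 ± 2.70 FPKM), where it overlapped with *CPC* at 15.9 ± 2.67 and with *GL2* at 14.1 ± 0.962, and rank 3 in *pep1-1* (24.9 ± 5.04 FPKM) and in the wild type. Places in this order depend in part on the gene model. The length behind the FPKM of *EGL3* was 2.18 times that of *GL3*, although *EGL3* spans 1.13 times as many bases of the genome. By reads per kilobase of the gene span, *TRY* was lowest in the wild type and *EGL3* had rank 7. On that scale *GL2* moved from rank 5 to 3, *GL1* from 3 to 4 and *CPC* from 4 to 5.

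**Figure D3:**
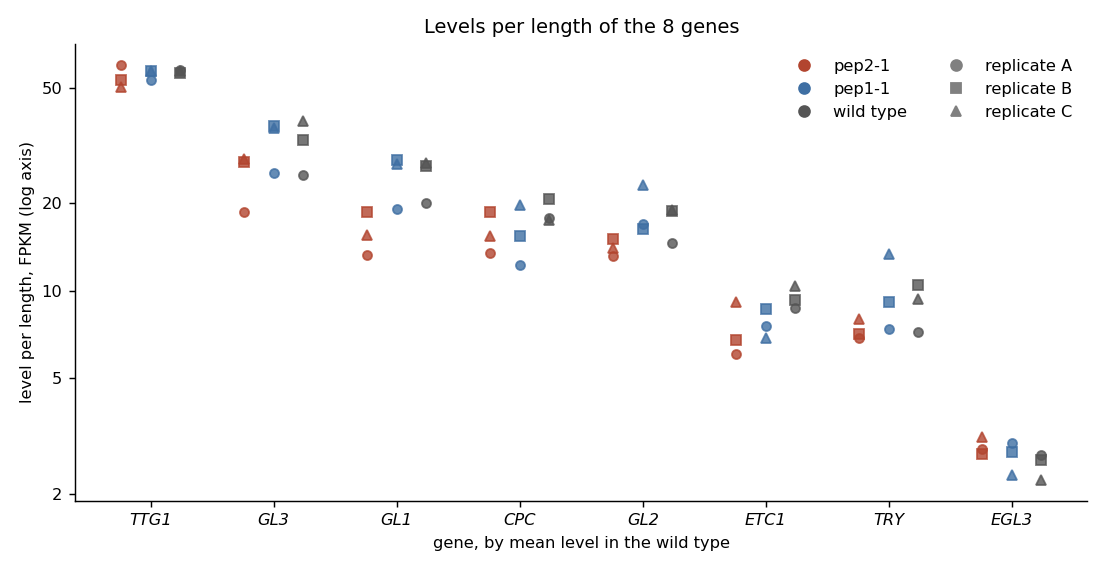
Level per length in FPKM units (log axis) of the 8 genes in each library, ordered by their mean in the wild type, with *pep2-1*, *pep1-1* and wild type from left to right within each gene and symbols for replicates A, B and C. *TTG1* lies highest and *EGL3* lowest in all 9 libraries.

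Markers of the epidermis, the tissue layer that carries trichomes, were also lower in *pep2-1*, without passing the test. The summed level of *ATML1*, *PDF1*, *PDF2* and *FDH* was 1320, 1727 and 1584 CPM in *pep2-1*, 1856, 1732 and 2017 CPM in *pep1-1* and 1896, 1908 and 1950 CPM in the wild type. All 3 *pep2-1* libraries lay below the other 6, by little for replicate B. Taken singly, 3 of the 4 markers had every *pep2-1* library below the wild type, and *FDH* overlapped. Against *pep1-1* this held for *PDF1* alone, and the other markers overlapped. Among single genes, 11.1% were separated in this way from the wild type and 11.5% from *pep1-1*. In *pep2-1* over the wild type 4 of 4 markers had log2 fold changes below 0, with a median of -0.24, and 0 of 4 were called by edgeR, DESeq2 or limma-voom (3 of 4 at an unadjusted p under 0.05 in each). The summed young leaf markers overlapped between *pep2-1* (282 to 302 CPM) and *pep1-1* (270.2 to 317 CPM). Every *pep2-1* library lay below the wild type (303 to 318 CPM), by little, though *AS1* and *FIL* each overlapped when taken singly. Meristem markers summed to 185 to 242 CPM in *pep2-1*, against 137 to 190 CPM in *pep1-1* and 147 to 200 CPM in the wild type, with overlap. Of the 2 vascular markers, *ATHB8*, a gene of early vascular cells, had 32.1 to 32.3 CPM in *pep2-1*, above all 6 other libraries (17.9 to 26.4 CPM in *pep1-1* and 23.2 to 25.4 CPM in the wild type). Its log2 fold change was 0.42 over the wild type (adjusted p = 0.167, edgeR) and 0.61 over *pep1-1* (adjusted p = 0.0441, under the fold threshold), while *SUC2*, a phloem gene, overlapped between the genotypes. Every *pep2-1* library lay above the wild type for 10.4% of all tested genes, and above *pep1-1* for 12.6%. In bulk apices, fewer epidermal cells and less RNA of the epidermis markers per cell cannot be told apart.

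The levels were also set over the summed epidermis markers of the same library, a sum that is mostly *PDF1* (60.3 to 66.7% of it), which had the lowest log2 fold change of the 4 in *pep2-1* over the wild type (-0.37, against -0.25 to -0.20 for the others). *GL1* had 7.04, 7.56 and 6.92 CPM per 1000 CPM of markers in *pep2-1*, 7.22, 11.46 and 9.49 in *pep1-1* and 7.42, 9.89 and 9.87 in the wild type. On this scale the *pep2-1* and wild-type libraries overlapped, with a log2 ratio of -0.33 and an exact two-sided permutation p of 0.2 (n = 3 each). The log2 ratio of *pep2-1* to the wild type was -0.05 for *GL3*, 0.02 for *GL2*, 0.04 for *TRY*, 0.08 for *CPC* and -0.07 for *ETC1*. *EGL3*, at 0.53, and *TTG1*, at 0.25, had every *pep2-1* library above every wild-type library on this scale. The divisor itself was lower in every *pep2-1* library than in every wild-type library. A gene with steady CPM thus rises on this scale, as *TTG1* did (log2 fold change of -0.06 in CPM). Over the 3 markers other than *PDF1* the log2 ratio of *pep2-1* to the wild type was -0.43 for *GL1*, still with overlapping libraries, -0.16 for *GL3*, -0.09 for *GL2*, -0.07 for *TRY*, -0.03 for *CPC* and -0.18 for *ETC1*. *EGL3*, at 0.42, kept its libraries apart there, and *TTG1*, at 0.15, did not. In *pep2-1* over *pep1-1*, *GL1* (-0.36) and *GL2* (-0.12) overlapped over the 4 markers. Without *PDF1*, every *pep2-1* library lay below every *pep1-1* library for *GL1* (-0.49) and *GL2* (-0.24), and the other genes of the 8 overlapped. The share of all genes separated on either scale was not computed. The choice of these scales was made after the data were seen, and whether the epidermal share of the tissue has a part in the lower levels was not tested.

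**Figure D4:**
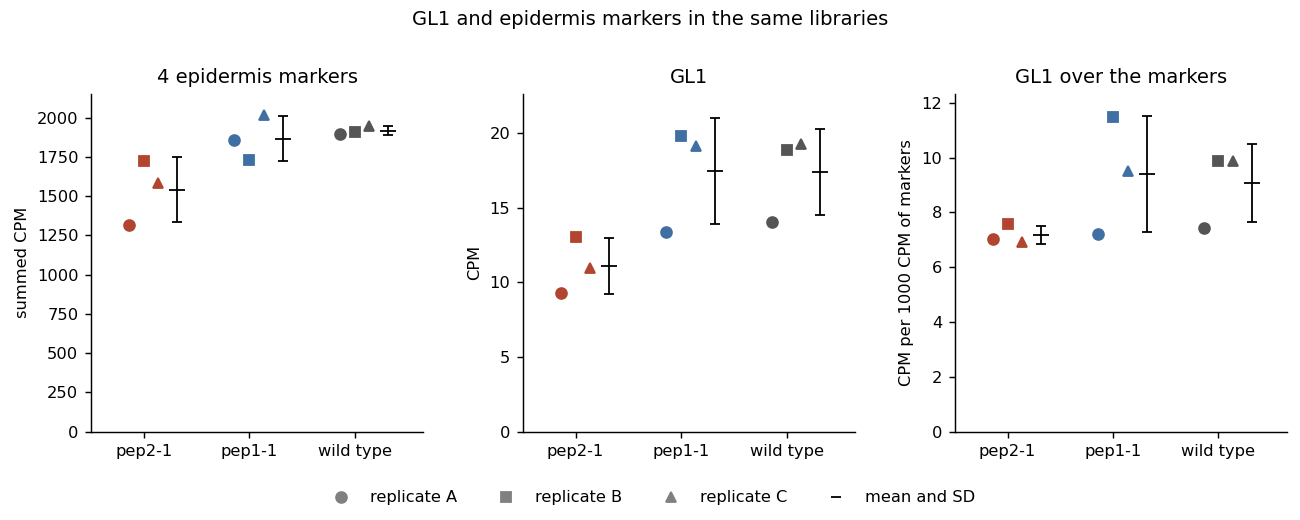
Summed CPM of 4 epidermis markers (left), CPM of *GL1* (middle) and *GL1* per 1000 CPM of the markers (right) in each library of *pep2-1*, *pep1-1* and wild type, with the mean and SD (n = 3). The *pep2-1* libraries of *GL1* lie below the wild type in CPM. Once set over the markers, they overlap with wild-type replicate A and stay below replicates B and C.

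Of 3 further lists of trichome and root hair genes, 37 genes had a row in the table and 34 were tested, and edgeR, DESeq2 and limma-voom called 0 of them in each comparison. At an unadjusted p under 0.05 edgeR had 8 of the 34 in *pep2-1* over the wild type, 3 in *pep1-1* over the wild type and 7 in *pep2-1* over *pep1-1*, beside 15.3%, 6.36% and 19.1% of all tested genes in the same order. In *pep2-1* over the wild type these were 1 of the 7 tested MYB, bHLH and WRKY regulators, 1 of the 4 C2H2 zinc finger regulators and 6 of the 23 genes of trichome growth and branching, and with lists this short nothing is read from their distance to the 15.3% of all genes. The median log2 fold changes of these 3 lists in that comparison were -0.00, -0.09 and 0.01, beside -0.31 for the 8 patterning genes. In *pep2-1* over *pep1-1* they were -0.26, 0.24 and -0.05, beside -0.24 for the 8. The first list thus lay as low as the patterning genes in that comparison.

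*MYC1*, a bHLH relative of *GL3* that also works in trichome formation and lies 217.1 kb from *EGL3* on chromosome 6, came closest to the threshold for adjusted p. It had 30.2, 28.1 and 28.5 CPM in *pep2-1*, 34.1, 40.5 and 36.3 CPM in *pep1-1* and 34.9, 38.1 and 38.3 CPM in the wild type. Every *pep2-1* library lay below the 6 others. Of all tested genes, 11.1% were separated in this way from the wild type and 11.5% from *pep1-1*. The log2 fold change was -0.36 over the wild type (standard error 0.0845, adjusted p = 0.0767 from edgeR) and -0.35 over *pep1-1* (standard error 0.0849, adjusted p = 0.0633).

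*TTG2*, a WRKY factor that acts with *GL2* after the complex, averaged 9.04 ± 1.77 CPM in *pep2-1* and 11.3 ± 0.756 CPM in the wild type (SD, n = 3 each), with overlapping libraries and a log2 difference of -0.33 (edgeR, adjusted p = 0.335). *MYB23*, which in *Arabidopsis* shares the function of *GL1* and was named after its values were seen, averaged 14.6 ± 2.69 CPM in *pep2-1*, 19.6 ± 4.02 in *pep1-1* and 19.3 ± 4.10 in the wild type. Its libraries overlapped, and its log2 fold change of -0.41 in *pep2-1* over the wild type (adjusted p = 0.366 from edgeR) did not pass. *WER*, the root relative of *GL1*, had 0 to 8 reads per library.

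Among the C2H2 regulators, *ZFP8*, which links hormone signals to trichome start in *Arabidopsis*, had 7.20, 7.19 and 8.75 CPM in *pep2-1* and 11.3, 10.6 and 12.3 CPM in the wild type. These libraries did not overlap, as for 11.1% of all tested genes in this direction. The log2 fold change was -0.56 (standard error 0.186, 95% interval -0.98 to -0.15, adjusted p = 0.191 from edgeR). *GIS3* lay at 0.45 on the log2 scale (edgeR, adjusted p = 0.459) with overlapping libraries, so the list did not share a direction.

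Genes that shape the growing hair had small positive values at the head of their list. *SPI*, a BEACH-domain gene, averaged 155 ± 5.43 CPM in *pep2-1* and 131 ± 6.51 CPM in the wild type, and *PIR*, a regulator of the actin cytoskeleton, averaged 27.02 ± 0.700 CPM in *pep2-1* and 22.8 ± 0.844 CPM in the wild type (SD, n = 3 each). On the log2 scale both lay 0.24 above the wild type (edgeR adjusted p of 0.160 for *SPI* and 0.169 for *PIR*). The libraries did not overlap, as for 10.4% of all tested genes in this direction. *BLT*, needed for branching and named after its values were seen, had 4.55, 4.41 and 4.65 CPM in *pep2-1*, 7.04, 6.999 and 7.19 CPM in *pep1-1* and 4.67, 6.88 and 8.85 CPM in the wild type. Its *pep2-1* libraries lay below the 6 others, closely for wild-type replicate A, with a log2 fold change over the wild type of -0.59 (adjusted p = 0.216 from edgeR). Such a separation was found for 11.1% of all tested genes against the wild type and 11.5% against *pep1-1*.

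The genes listed for the anthocyanin branch, which uses the same TTG1 complex with other MYB partners, mostly had few reads in these apices. Of the 10 listed, 6 had a row, so the branch is covered in part. Only *TT19* (4.69 to 6.63 CPM) had enough reads for the test, at -0.07 on the log2 scale in *pep2-1* over the wild type (edgeR, adjusted p = 0.861). *PAP1* had 2 to 29 reads per library. *TT8*, the bHLH partner of that branch, had 0 to 1 reads per library.

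**Figure D5:**
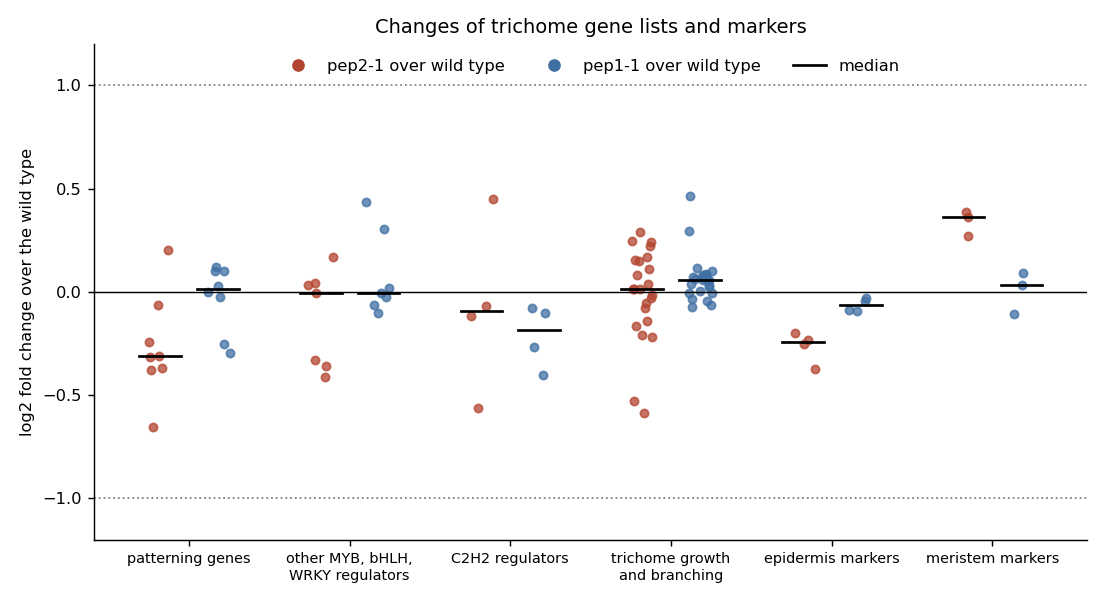
Log2 fold changes from edgeR of each tested gene (points) and their median (bars) for the 8 patterning genes, 3 further trichome lists, and markers of epidermis and meristem, in *pep2-1* over wild type (left points of each list) and *pep1-1* over wild type (right points). No point passes the dotted lines at 1 in either direction, and the medians in *pep2-1* over wild type are -0.31 for the patterning genes, -0.24 for epidermis and 0.36 for meristem markers.

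The genes whose pattern over the 9 libraries was most like that of *GL1*, by Pearson's r of log2 CPM among 16566 tested genes with an ortholog, were AALP_AA7G169000 (a ChaC-like protein, r = 0.98), AALP_AA5G026800 (an integrase-type DNA-binding protein, r = 0.98) and AALP_AA6G179900 (cytochrome P450 77B1, r = 0.97). The ChaC-like gene averaged 17.0 ± 2.21 CPM in *pep2-1*, 31.5 ± 9.71 in *pep1-1* and 29.8 ± 7.49 in the wild type (SD, n = 3 each). For *GL2* they were AALP_AA8G421500 (a putative 30S ribosomal protein, r = 0.98), AALP_AA7G187600 (a DUF642 protein, r = 0.97) and AALP_AA8G330400 (a translation protein of the SH3-like family, r = 0.97). None of the 6 was called in any comparison by edgeR, DESeq2 or limma-voom. At an unadjusted p under 0.05 edgeR had all 6 in *pep2-1* over *pep1-1*, beside 19.1% of all tested genes. They were picked for likeness to *GL1* and *GL2*, which are under that p there too, so the count follows from the choice. The values are descriptions: the 9 points share libraries and genotypes, and the closest of many genes will have a high r.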

How the data were processed

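The 9 libraries hold TruSeq cDNA of polyadenylated RNA, sequenced by the authors from 1 end over 100 bases and mapped with TopHat to the *A. alpina* reference genome. Versions, annotation and strand were not given in the sources used here. Raw reads per gene, as deposited, were taken as estimated counts, since 64 genes (none of the 8) have fractional values, and were rounded. The deposited FPKM values, 1 per genotype over its 3 libraries from the authors' CuffDiff run, served only to set CPM to gene length. The design had planned FPKM per library, but 18 columns of scaled reads and FPKM per library were not used, as each library entered once. For the 8 genes the authors' value was 0.998 to 1.001 times the mean of the length-set levels. The scaling sets the sum over the genotypes to the authors' sum, so this match is in large part built in. Columns of fold changes, p-values and q-values, and sheets of genes past that q-value, hold the authors' comparisons and were not used.

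Genes passed filterByExpr (edgeR 4.0.16) at a minimum count of 10 and a minimum total of 15. TMM factors were 0.981 to 1.03, and 1 quasi-likelihood model with the 9 libraries was fitted under R 4.3.3, with Benjamini-Hochberg adjustment. The thresholds are those of the study's methods. A standard error is the log2 fold change divided by the square root of F, and 95% intervals take the t quantile of the model's degrees of freedom. The script was tested on simulated data. Alternatives used DESeq2 1.42.0, limma-voom (limma 3.58.1), other scalings, no filter, fewer libraries, a block by replicate letter and, chosen after the data were seen, levels over epidermis markers with and without *PDF1*.

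The table letters replicates A to C and the labels number them 1 to 3, with no link given, so a letter only names a library. P-values measure the spread between these libraries. Named from each further list were called genes and the 2 with the smallest p in *pep2-1* over the wild type (1 where 1 was tested), and the 3 genes most like *GL1* and *GL2* (pseudocount 2). The members and lists were chosen with earlier results of these data known. Chromosome numbers are those in the gene identifiers. Sequences are not printed, since none was used here.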

Additional observations from a re-analysis of the deposited data

How the results depend on the processing

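No alternative called any of the 8 genes in any comparison (17 alternatives with a test). Of 456 values of the log2 fold changes of single genes under alternatives, 414 kept their sign and 42 did not, and 12 of the 24 comparisons of a gene had no change of sign. *GL1* in *pep2-1* stayed below 0 throughout, at -0.79 to -0.33 over the wild type and -0.82 to -0.36 over *pep1-1*, with the smallest size over the epidermis markers.

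Over the epidermis markers, *pep2-1* over the wild type gave 0.25 for *TTG1*, 0.02 for *GL2*, 0.04 for *TRY* and 0.08 for *CPC*, *pep1-1* over the wild type gave 0.04 for *GL1* and 0.01 for *TTG1*, and *pep2-1* over *pep1-1* gave 0.24 for *TTG1* and 0.20 for *ETC1*. Over those markers without *PDF1*, *TTG1* had 0.15, 0.03 and 0.11 in *pep2-1* over the wild type, *pep1-1* over the wild type and *pep2-1* over *pep1-1*, *GL1* 0.06 in *pep1-1* over the wild type and *ETC1* 0.07 in *pep2-1* over *pep1-1*. *GL1* in *pep1-1* over the wild type was 0.00 with DESeq2 size factors, no filter, DESeq2, the 6 libraries compared or the replicate block, and 0.04 with the replicates B and C alone. The last setting gave 0.02 for *TTG1* in *pep1-1* over the wild type, and -0.04 for *CPC* and 0.03 for *ETC1* in *pep2-1* over *pep1-1*, where library size alone gave -0.01 for *CPC*. Leaving out 1 library at a time gave, in *pep1-1* over the wild type, -0.13 to 0.16 for *GL1*, -0.12 to 0.19 for *GL3*, -0.04 to 0.01 for *TTG1*, -0.07 to 0.20 for *GL2* and -0.14 to 0.30 for *TRY*, and in *pep2-1* over *pep1-1*, -0.11 to 0.02 for *TTG1*, -0.15 to 0.20 for *CPC* and -0.27 to 0.04 for *ETC1*. The cause was not tested.

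The number of all genes called moved more. In *pep2-1* over the wild type 181 became 287 with DESeq2, 541 with the replicates B and C alone, 399 with the replicate block and 69 (without wild-type replicate B) to 311 (without wild-type replicate A) with 1 library left out. In *pep1-1* over the wild type 35 became 70, 60 and 57 in the same order, 23 with the 6 libraries compared and 15 (without *pep1-1* replicate C) to 31 with 1 library left out. In *pep2-1* over *pep1-1* 290 became 482, 723 and 663, and 92 (without *pep1-1* replicate B) to 556 (without *pep1-1* replicate A). The cause was not tested. By reads per kilobase of the gene span, 3 of the 8 genes kept their rank in the wild type.

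The replicates share only a letter. Deviations of same-letter libraries from their genotype's mean correlated at -0.00473 to 0.537, and 5 of 9 libraries correlated best with their own letter in both other genotypes, a hint from the data and not the design. With the letter as a block, *GL1* had adjusted p-values of 0.00736 in *pep2-1* over the wild type and 0.00489 over *pep1-1*, and *GL3* 0.0190 and 0.00885 (edgeR), all under the fold threshold. Depth limits *ETC1* (22 to 57 reads per library) and *TRY* (37 to 103) most.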
